A study of Mus musculus with 10 samples.

Results

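The *Fbxw* F-box cluster on mouse chromosome 9 was followed in H3K4me3 profiles of *Setd1b*-deficient and control oocytes. The members were *Fbxw13*, *Fbxw14*, *Fbxw15*, *Fbxw16*, *Fbxw18*, *Fbxw19*, *Fbxw20*, *Fbxw21*, *Fbxw22* and *Fbxw24*, and every 5 kb window that the deposited table assigns to one of these 10 genes on chromosome 9 was taken. This gave 50 of 544879 windows, with 4 to 6 windows per gene, of which 10 hold the annotated start of a member and 40 do not. All members lie on the minus strand of GRCm38, from the end of *Fbxw21* at base 109139447 to the start of *Fbxw18* at base 109702700, a span of 563.3 kb.

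The libraries are ULI-nChIP-seq, a native chromatin immunoprecipitation for very few cells, from germinal vesicle (GV) oocytes of 21-day-old females, of strain C57BL6 in the labels and C57BL/6OlaHsd in the methods of the study. Each came from a pool of approximately 200 oocytes. *Setd1b* cKO females were floxed/floxed and Gdf9-Cre positive, and Gdf9-Cre acts in oocytes from early folliculogenesis onwards. *Setd1b* WT females were floxed/floxed and Gdf9-Cre negative per the labels, while the methods of the study also allow Cre-positive females with one intact allele as WT, so the controls may not all lack Cre. The cKO and WT groups had 3 H3K4me3 libraries and 2 input libraries each, input being chromatin sequenced without the antibody. The H3K4me3 libraries held between 10856015 and 32775874 reads in windows, and the input libraries between 20756128 and 26566505. At the start-site window of *Setd1b* itself, H3K4me3 was between 3.93 and 4.66 in the cKO libraries and between 6.11 and 7.65 in the WT libraries (difference −2.74 ± 0.465 SE, limma adjusted p = 0.0332), although a value of a histone mark does not measure the deletion. This call was lost on both log2 scales (adjusted p = 0.216 and 0.442), after quantile normalization (0.128), with edgeR (0.446) and when any library but cKO replicate 1 was left out (0.0612 to 0.128).

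F-box proteins are the substrate receptors of SCF ubiquitin ligases, in which SKP1 links the F-box protein to the cullin CUL1 and the RING protein RBX1. Proteins of the Fbxw class add WD40 repeats, which bind the substrate that is to be ubiquitinated. The chromosome 9 genes are tandem copies that resemble one another, and *Fbxw15* is known as a gene expressed in oocytes of the mouse ovary. H3K4me3 marks the promoters of transcribed genes, and SETD1B is one of the methyltransferases that place it, in a complex with the CpG-binding protein CXXC1.

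The promoters are shown because the members are near copies at their start sites, so that reads could be shared between genes, and because they hold few CpG dinucleotides. RefSeq promoters (build GRCm38.p6, 250 bases before to 50 bases after the start) were matched for 8 of the 10 members, and *Fbxw13* and *Fbxw22* had no entry. The lines below give the 130 bases before the RefSeq start, 5′ to 3′ on the minus strand, with the E-box CAGCTG and the 12-base run AAATCTTTGGCC in capitals. From lowest to highest coordinate they are chr9:109162023-109162152 (*Fbxw21*), chr9:109234755-109234884 (*Fbxw20*), chr9:109287677-109287806 (*Fbxw14*), chr9:109449141-109449270 (*Fbxw16*), chr9:109495855-109495984 (*Fbxw19*), chr9:109568263-109568392 (*Fbxw15*), chr9:109626060-109626189 (*Fbxw24*) and chr9:109702701-109702830 (*Fbxw18*).
Fbxw21: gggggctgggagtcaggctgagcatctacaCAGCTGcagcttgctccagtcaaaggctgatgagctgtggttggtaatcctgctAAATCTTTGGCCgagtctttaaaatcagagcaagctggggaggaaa
Fbxw20: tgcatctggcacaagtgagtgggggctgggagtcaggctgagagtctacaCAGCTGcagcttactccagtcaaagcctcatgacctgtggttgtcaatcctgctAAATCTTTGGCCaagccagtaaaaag
Fbxw14: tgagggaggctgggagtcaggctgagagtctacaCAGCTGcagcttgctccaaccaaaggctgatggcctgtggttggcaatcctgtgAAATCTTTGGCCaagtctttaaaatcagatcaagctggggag
Fbxw16: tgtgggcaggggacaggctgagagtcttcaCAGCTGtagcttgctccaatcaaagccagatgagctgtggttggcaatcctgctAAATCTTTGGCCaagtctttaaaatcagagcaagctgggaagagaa
Fbxw19: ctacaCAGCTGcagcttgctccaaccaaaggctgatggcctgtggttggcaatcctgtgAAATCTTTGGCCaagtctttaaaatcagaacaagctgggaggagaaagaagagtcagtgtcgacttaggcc
Fbxw15: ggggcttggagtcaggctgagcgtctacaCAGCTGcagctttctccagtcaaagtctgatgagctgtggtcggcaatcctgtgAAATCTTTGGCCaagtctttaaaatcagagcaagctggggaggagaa
Fbxw24: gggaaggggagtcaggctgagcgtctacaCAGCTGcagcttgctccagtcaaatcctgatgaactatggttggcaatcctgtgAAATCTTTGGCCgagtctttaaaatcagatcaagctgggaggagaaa
Fbxw18: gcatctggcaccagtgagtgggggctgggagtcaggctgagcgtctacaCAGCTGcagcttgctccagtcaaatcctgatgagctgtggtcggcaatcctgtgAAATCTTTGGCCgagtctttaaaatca

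Across the 28 pairs of these 300-base promoters, identity ranged from 84.9% for *Fbxw16* and *Fbxw20* to 96.3% for *Fbxw14* and *Fbxw19*, with a median of 90.8%. They held 0 to 4 CpG dinucleotides, against a median of 7 over all 32851 promoters in the table. AAATCTTTGGCC began at positions −71 to −26 relative to the start and occurred in 13 of all promoters, 11 of which belong to *Fbxw* genes of chromosome 9. A second 12-base run shared by all 8, GACTTAGGCCAC, began between −10 and 35 and occurred in 12 promoters, all of them of *Fbxw* genes of chromosome 9. These runs and the CAGCTG form were picked after the sequences were seen.

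Among the motifs searched on both strands, the general E-box CANNTG, which includes CAGCTG, occurred in 8 of 8 member promoters and in 72.3% of all promoters. CAGCTG itself occurred in 8 of 8 and in 16.3% of all. The homeodomain-type words TAATTG and TAATTA and the TATA word TATAAA occurred in 0 of 8, against 8%, 5.29% and 13.6% of all promoters. CCAAT occurred in 1 of 8, that of *Fbxw16*, and in 37.4% of all. Because the promoters are copies of one another, these counts are not independent observations.

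In WT oocytes H3K4me3 peaked at the start of each member. Values are enrichment-normalized RPKM, not log-transformed: each library was shifted and scaled so that weak and strong windows match between libraries, so a value can lie below 0 and differences rather than folds are given. Over the 10 start-site windows the WT libraries averaged 4.04 ± 0.314 (SD, n = 3) and the cKO libraries 2.80 ± 0.384 (SD, n = 3), while the other 40 member windows averaged 1.23 ± 0.0911 in WT and 1.15 ± 0.0359 in cKO. Among the windows assigned to the same gene, the start-site window was the highest in 10 of 10 members in WT. In cKO it was the highest in 9 of 10, the exception being *Fbxw15*. The windows directly upstream of the starts are assigned to no member and are not in this count. In cKO the window directly upstream of *Fbxw20* averaged 4.19, above its start-site window at 2.10. The median over all windows of the genome was 1.46 in WT and 1.54 in cKO, and over the 20269 windows with the start of a protein-coding gene 3.72 and 4.04.

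The comparison of cKO with WT asks whether the mark at these genes depends on SETD1B in the oocyte. No member window passed the limma test at an adjusted p under 0.05, in either direction, where 1.02% of all windows did (0.454% lower and 0.563% higher in cKO), and 0.75% of protein-coding start windows were called lower. At an unadjusted p under 0.05, 8 of the 50 member windows were lower and 0 higher in cKO, against 8.12% and 6.82% of all windows. All 8 were start-site windows, of which 8 of 10 therefore passed this level where 9.47% of protein-coding start windows did, and 0 of the 40 other member windows were among them.

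All 10 start-site windows had a lower mean in cKO, with differences from −2.22 at *Fbxw21* to −0.48 at *Fbxw13* and a median of −1.34. Of the windows with the start of any protein-coding gene, 45.8% had a lower mean in cKO and the median difference was 0.0938. In 6 of the 10, every cKO library lay below every WT library, against 8.99% of protein-coding start windows and 9.95% of all windows. The opposite order, with cKO above WT throughout, occurred in 0 member windows and in 9.88% of all windows. Of the 10 windows directly upstream of the start-site windows, 2 had that order, those of *Fbxw20* and *Fbxw16*. Neighbouring windows share libraries and the members share sequence, so the 10 are not independent replicates of the comparison.

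**Figure D1:**
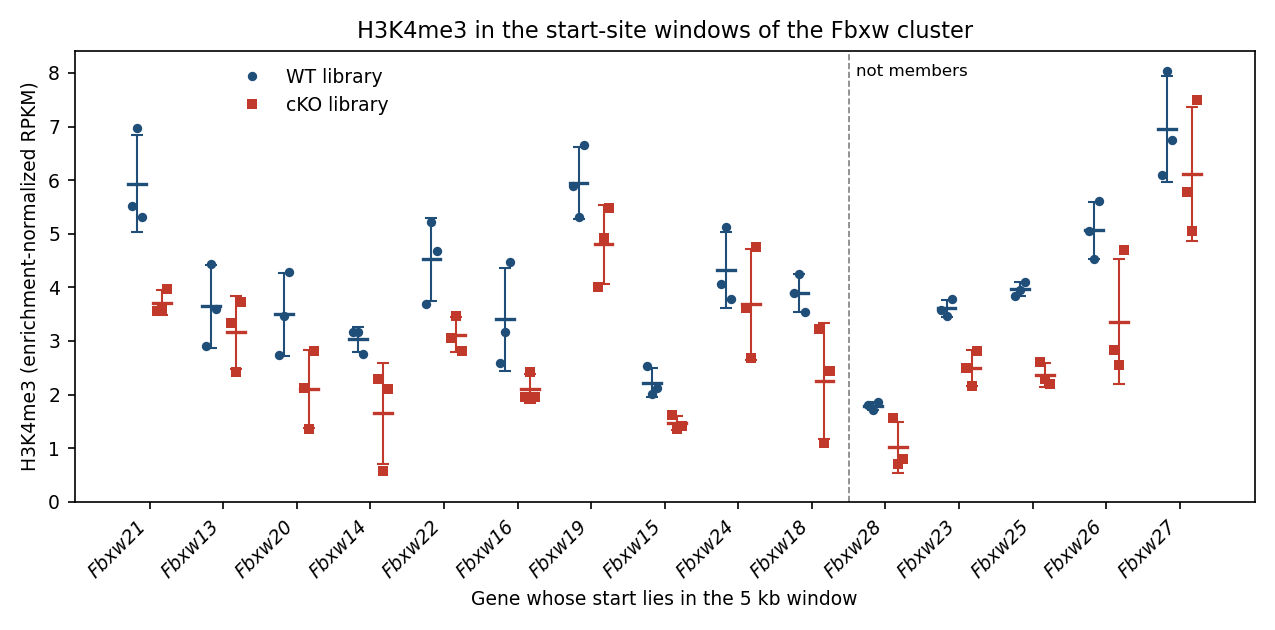
H3K4me3 (enrichment-normalized RPKM, y axis) in the 5 kb window holding each gene's start, for 10 members and 5 other *Fbxw* genes of the same region (x axis). Points are libraries, and bars are the mean ± SD of 3; the cKO mean is below the WT mean in all 15, and groups do not overlap in 9, where 8.99% of protein-coding start windows have every cKO library below every WT one.

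The 6 members without overlap between groups were *Fbxw21*, *Fbxw14*, *Fbxw22*, *Fbxw16*, *Fbxw15* and *Fbxw18*. *Fbxw21* (chr9:109139447-109162041) had the largest difference of all member windows. The window chr9:109160001-109165000 held 3.56, 3.61 and 3.98 in cKO replicates 1, 3 and 4, and 5.52, 6.97 and 5.31 in WT replicates 1, 2 and 4. The cKO libraries lay close together and the highest of them was below the lowest WT library. The difference was −2.22 ± 0.462 SE, with a limma adjusted p of 0.0559. It passed the threshold when windows with a mean value under 1, or with a mean input under 1, were removed first (adjusted p = 0.0471 and 0.0461). The adjusted p was 0.244 and 0.443 on the log2 scales, 0.178 after quantile normalization and 0.425 with edgeR, and over the 10 kb that include the next window upstream the difference was −1.08.

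*Fbxw18* (chr9:109676734-109702700), the most distal member, held 3.23, 1.10 and 2.43 in the cKO libraries and 3.90, 4.24 and 3.54 in the WT libraries (replicates in the same order as above). The cKO libraries were spread more widely (SD 1.08) than the WT libraries (SD 0.354), and cKO replicate 3 was the lowest. The difference was −1.64 ± 0.517 SE (limma adjusted p = 0.163). Without cKO replicate 1 it was −2.13, with an adjusted p of 0.0456, which was the only member window that leaving out a library moved past the threshold, and without cKO replicate 3 it was −1.06 (adjusted p = 0.285).

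*Fbxw22* (chr9:109378400-109404296) held 3.06, 3.47 and 2.82 in cKO and 3.69, 5.22 and 4.68 in WT. The groups were separated by the small gap between cKO replicate 3 and WT replicate 1. The difference was −1.41 ± 0.439 SE (limma adjusted p = 0.159).

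*Fbxw14* (chr9:109270790-109287676) held 2.28, 0.569 and 2.10 in cKO and 3.16, 3.17 and 2.76 in WT. The WT libraries were nearly equal, and cKO replicate 3 was far below the other cKO libraries. The difference was −1.38 ± 0.472 SE (limma adjusted p = 0.197) and −0.84 without cKO replicate 3, and the low unique sequence of this gene is described with the input values.

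*Fbxw16* (chr9:109432316-109449140) held 1.95, 2.42 and 1.95 in cKO and 2.59, 3.17 and 4.47 in WT. The spread lay mostly in WT, where replicate 4 was the highest. The difference was −1.30 ± 0.480 SE (limma adjusted p = 0.231) and −0.78 without WT replicate 4. The start lies 860 bases from the upstream edge, and the next window upstream had the opposite order, at 1.56, 1.89 and 2.05 in cKO and 1.23, 1.33 and 1.05 in WT (difference 0.63 ± 0.332 SE, limma adjusted p = 0.421). Over the 10 kb of both windows the difference at *Fbxw16* was −0.34. The start of the antisense gene *Gm42493* lies in the same window, and a histone mark carries no strand, so the signal of both genes cannot be told apart.

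*Fbxw15* (chr9:109552602-109568262) had the lowest start-site signal of the members. Its window held 1.62, 1.36 and 1.42 in cKO and 2.54, 2.01 and 2.13 in WT. The groups did not overlap although the window held only 15 to 61 reads per library. The difference was −0.76 ± 0.335 SE (limma adjusted p = 0.325).

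In the other 4 members the groups overlapped. *Fbxw19* (chr9:109476654-109495875) had, with *Fbxw21*, the highest WT signal, at 5.88, 5.31 and 6.65 in WT and 4.00, 4.93 and 5.47 in cKO. Only cKO replicate 4 reached into the WT range. The difference was −1.15 ± 0.481 SE (limma adjusted p = 0.295) and −0.75 without cKO replicate 1.

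*Fbxw20* (chr9:109217432-109234754) held 2.12, 1.36 and 2.82 in cKO and 2.75, 3.47 and 4.29 in WT. The overlap was between cKO replicate 4 and WT replicate 1 alone. The difference was −1.40 ± 0.497 SE (limma adjusted p = 0.215), but the start lies 246 bases from the upstream edge of its window. In the next window upstream, chr9:109235001-109240000, the order was the reverse, at 4.00, 2.95 and 5.62 in cKO and 2.69, 1.91 and 2.88 in WT (difference 1.69 ± 0.609 SE, limma adjusted p = 0.220). Over the 10 kb of both windows the difference at *Fbxw20* was 0.15, which turns its direction. The same 10 kb means gave smaller differences at the other members too, from −1.15 at *Fbxw18* to −0.33 at *Fbxw13*.

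*Fbxw24* (chr9:109601116-109626057) held 3.61, 2.68 and 4.75 in cKO and 4.05, 5.12 and 3.78 in WT, a difference of −0.64 ± 0.553 SE. *Fbxw13* (chr9:109179227-109195975) held 3.34, 2.42 and 3.74 in cKO and 2.90, 4.44 and 3.60 in WT, a difference of −0.48 ± 0.487 SE. In both genes the groups were interleaved and the difference was close to its standard error (limma adjusted p = 0.558 and 0.617). Leaving out one library moved the difference between −1.17 (without cKO replicate 4) and −0.14 (without cKO replicate 3) at *Fbxw24*, and between −0.85 (without WT replicate 1) and −0.09 (without WT replicate 2) at *Fbxw13*.

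**Figure D2:**
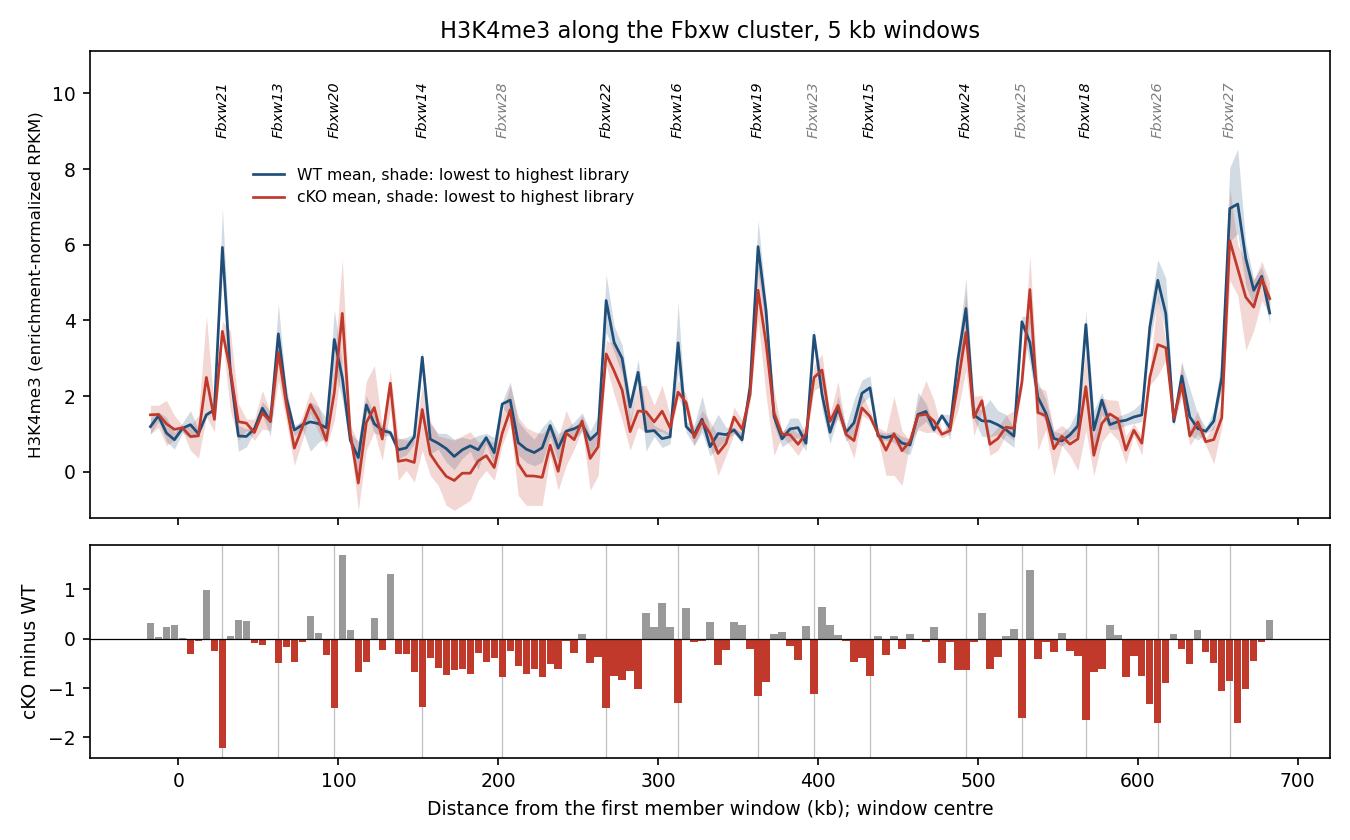
Upper panel, mean H3K4me3 (enrichment-normalized RPKM) of 3 WT and 3 cKO libraries in each 5 kb window, with the lowest to highest library shaded, against distance from the first member window (kb); names mark windows with a gene start, grey names being genes that are not members. Lower panel, cKO minus WT, with bars below 0 in red; the most negative member bar, −2.22, is at *Fbxw21*.

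The order of the start-site levels began and ended with the same genes in both groups. In WT it ran from *Fbxw19* (5.95 ± 0.672, SD, n = 3) and *Fbxw21* (5.93 ± 0.905) through *Fbxw22* (4.53 ± 0.776), *Fbxw24* (4.32 ± 0.709), *Fbxw18* (3.89 ± 0.354), *Fbxw13* (3.65 ± 0.769), *Fbxw20* (3.50 ± 0.771), *Fbxw16* (3.41 ± 0.960) and *Fbxw14* (3.03 ± 0.238) to *Fbxw15* (2.22 ± 0.278). Apart from the steps from *Fbxw21* to *Fbxw22* and from *Fbxw14* to *Fbxw15*, neighbours in this order differed by less than the larger of their SDs. In cKO *Fbxw19* (4.80 ± 0.743) was again highest and *Fbxw15* (1.47 ± 0.134) lowest, and *Fbxw21* (3.71 ± 0.230) and *Fbxw24* (3.68 ± 1.04) lay next to each other.

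The difference was largest in the window of the start. Averaged over the 10 members, the difference was −1.24 in the start-site window, −0.30 in the next window into the gene and −0.05 in the next window upstream. The upstream windows averaged 2.04 ± 0.0923 in WT and 1.99 ± 0.386 in cKO (SD, n = 3), and 6 of the 10 had a lower mean in cKO. Their differences ran from −0.87 to 1.69, so the mean of −0.05 combines windows that were lower with windows that were higher in cKO. In the next window into the gene the libraries of the groups also did not overlap, by a narrow margin, the highest cKO mean being 1.406 and the lowest WT mean 1.414. Beyond these, at 10 and 15 kb into the gene, the mean differences were 0.04 and 0.02, and at 10 and 15 kb upstream they were −0.18 and −0.20.

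**Figure D3:**
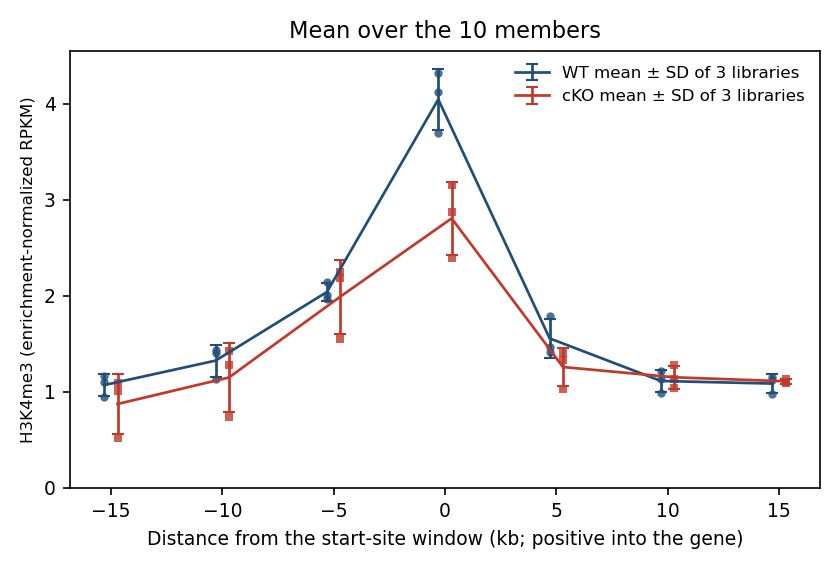
H3K4me3 (enrichment-normalized RPKM) averaged over 10 members, by distance of the window from the start-site window in kb, positive into the gene. Points are libraries and lines the mean ± SD of 3; the groups are furthest apart at 0 kb, with 4.04 in WT against 2.80 in cKO.

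Within the gene bodies the levels were below those of the genome, with medians of 1.14 in WT and 1.11 in cKO against 1.46 and 1.54, while the difference between groups was close to that of all windows. The 40 other windows differed by −0.68 to 0.99 with a median of −0.08, where the median over all windows was −0.10, and 26 of 40 were lower (65.0%, against 56.3% of all windows). On whole reads the direction turned, with 15 of the 40 negative in edgeR and a median log2 fold change of 0.24, against 0.09 over all windows. The largest positive difference of any member window was at chr9:109150001-109155000 in *Fbxw21*, 10 kb into the gene from its start-site window. The body windows of *Fbxw16* were all higher in cKO, by 0.23 to 0.73, none with an unadjusted p under 0.05, while its start-site window was lower. Input in the same body windows, from lowest to highest coordinate, differed by 0.64, 0.67 and −0.07 between cKO and WT. The part of input in the higher values was not tested.

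**Figure D4:**
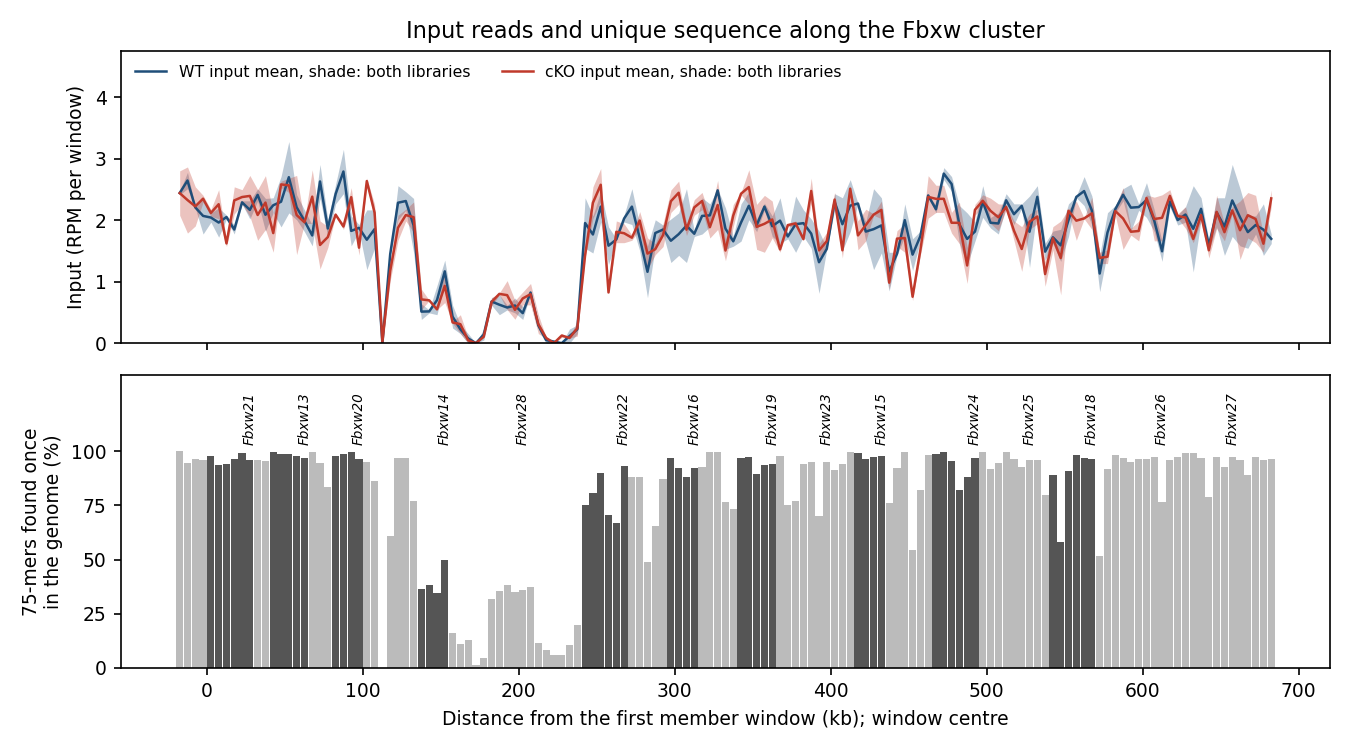
Upper panel, input RPM (reads scaled to library size) in each 5 kb window, as the mean of 2 WT and 2 cKO libraries with both libraries shaded; lower panel, percent of 75-base stretches found once in the genome, with member windows dark. The x axis is the distance from the first member window in kb; *Fbxw14* and *Fbxw28* lie in a stretch where both are low, with input means of 0.607 to 1.05 in the *Fbxw14* windows.

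Input was used as a control for reads that the near-identical copies share. A read that fits several copies equally well receives a low mapping quality and was removed, so shared sequence appears as missing input. In the 46 windows of members other than *Fbxw14* the mean input was 1.21 to 2.63 RPM (reads of the window scaled to library size) with a median of 2.06, against a median of 2.07 over all windows, and 57.9% to 99.5% of their 75-base stretches occurred once in the genome. The 4 *Fbxw14* windows had a mean input of 0.607 to 1.05, only 34.5% to 49.9% of their 75-base stretches occurred once, and 49.8% to 65.4% recurred elsewhere in the cluster. The highest input of a member window, 2.63, was at chr9:109185001-109190000 in *Fbxw13* and the lowest, 0.607, at chr9:109275001-109280000 in *Fbxw14*.

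The gene that shares most sequence with the *Fbxw14* windows is *Fbxw28* (chr9:109322886-109339659), which is not a member. Of the 20000 different 75-base stretches that start in the *Fbxw14* windows, 58.6% occurred again in or within 5 kb of *Fbxw28*, against 6.65% for *Fbxw22* and 2.1% or less for each of the other *Fbxw* genes of the region. In the deposited table the *Fbxw14* windows carry the identifier ENSMUSG00000054087, a number that GENCODE M21 gives to *Fbxw28*, while M21 lists *Fbxw14* as ENSMUSG00000105589, and the windows were therefore followed by symbol and position. The start-site window of *Fbxw28* held 1.56, 0.701 and 0.795 in cKO and 1.80, 1.72 and 1.86 in WT. Both genes showed the same order of groups, but which copy a removed read came from cannot be told.

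Few reads also matter for the bodies of *Fbxw14*. After the enrichment normalization a window without any read has a mean value of −0.31 in cKO and 0.358 in WT, so that it differs by −0.67 with nothing measured. The 3 body windows of *Fbxw14* differed by −0.68 to −0.30, about the size of this offset or less, and on whole reads 2 of its 4 windows had a positive log2 fold change. The start-site windows of the members held 12 to 212 reads per H3K4me3 library, and their RPM relative to input ran from 1.13 to 3.40 in WT and from 0.661 to 2.16 in cKO, lower in cKO at each of the 10. This ratio scales for library size and does not correct for how strongly each library was enriched. The part of enrichment in these lower ratios was not tested, and no share over other start windows is given for them.

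Input did not separate cKO from WT. No member window passed the limma test or edgeR on input, where limma called 0% of all windows, and at a limma unadjusted p under 0.05 there were 2 lower and 1 higher, against 7.03% of all windows in either direction. The 3 were in the bodies of *Fbxw21* and *Fbxw24* and at the start of *Fbxw16*, whose input was higher in cKO while its H3K4me3 was lower. The mean input over the 10 start-site windows was 1.93 ± 0.0881 in cKO and 1.88 ± 0.0445 in WT (SD, n = 2).

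On whole reads, edgeR gave negative log2 fold changes at all 10 start-site windows, from −0.91 at *Fbxw21* to −0.27 at *Fbxw13*, where 56.4% of protein-coding start windows were negative. None passed (adjusted p from 0.179 at *Fbxw16* to 0.823 at *Fbxw13*), where 2.29% of all windows did, and 4 had an unadjusted p under 0.05 with a negative sign, against 3.20% of protein-coding start windows and 6.25% of all windows. The 4 were *Fbxw16*, *Fbxw14*, *Fbxw20* and *Fbxw18*. Over all 50 member windows the edgeR median was 0.00 against 0.09 over all windows, and 25 of 50 were negative, so the direction held at the starts and not over the member windows as a whole. This fit does not correct for how strongly each library was enriched, and the reads at the 99th percentile of windows were 3.47 to 13.5 times those at the 40th percentile in cKO libraries and 5.38 to 14.3 times in WT libraries, whose part in the result was not tested.

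The count of 8 start-site windows at an unadjusted p under 0.05 depended on single libraries and on the scale. It was 4 without WT replicate 4 and 5 without cKO replicate 3, and 6 or 7 without each of the other libraries. It was 6 on log2(value + 1), 2 on log2(value + 0.1), 5 after quantile normalization and 4 over 10 kb pairs of windows. The mean remained lower in cKO at all 10 under each of these settings but the 10 kb pairs, where *Fbxw20* was the exception.

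The other *Fbxw* genes of the region were not chosen as members and give the same measure at further copies. *Fbxw23*, *Fbxw25* and *Fbxw28* lie between the members, and *Fbxw26* and *Fbxw27* lie just beyond *Fbxw18*. All 5 start-site windows had a lower mean in cKO, by −1.70 to −0.77, so that 15 of 15 annotated *Fbxw* starts of the region were lower, where 45.8% of protein-coding start windows were. None of the 5 passed the limma test, as 1.93% of protein-coding start windows did.

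*Fbxw25* (chr9:109645122-109664652), which the table lists as CT025661.1, had the smallest p-value of them, at 2.62, 2.29 and 2.19 in cKO and 3.84, 3.95 and 4.11 in WT. Libraries within each group were nearly equal, and the difference was −1.60 ± 0.329 SE (limma adjusted p = 0.0534). Its start lies 348 bases from the upstream edge, and the next window upstream was higher in cKO by 1.40 ± 0.508 SE (limma adjusted p = 0.225), so that over both windows the difference was −0.10. *Fbxw23*, annotated as a transcribed pseudogene, differed by −1.12 ± 0.343 SE (limma adjusted p = 0.154). Its start lies 142 bases from the upstream edge, the next window upstream differed by 0.64 ± 0.375 SE, and over both windows the difference was −0.24.

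*Fbxw26* (chr9:109717566-109746089) held 2.84, 2.55 and 4.70 in cKO and 5.05, 4.54 and 5.61 in WT, a difference of −1.70 ± 0.562 SE (limma adjusted p = 0.183). Only cKO replicate 4 reached into the WT range. *Fbxw27* (chr9:109766045-109790670) had the highest signal of the 15, at 6.96 ± 0.990 in WT and 6.11 ± 1.25 in cKO (SD, n = 3), and its groups overlapped. Around these starts the neighbouring windows were lower in cKO as well, at an unadjusted p under 0.05 in the next window into *Fbxw26* (−1.33), the next window into *Fbxw27* (−1.06) and the one upstream of *Fbxw27* (−1.71), the last 2 differences being larger than that of the *Fbxw27* start (−0.85).

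Between the first and the last member, GENCODE M21 places 11 other genes, of which 3 are *Fbxw* genes and the others are small nuclear RNA genes (*Gm22821*, *Gm25484*, *Gm24641*), antisense genes (*Gm42493*, *Gm42756*), a processed pseudogene (*Gm43089*) and unclassified transcripts (*Gm42494*, *Gm42755*). Only 2 of the 11 are protein-coding. None of their start windows passed the limma test, where 1.02% of all windows did. A lower mean in cKO was found in 7 of 11, against 56.3% of all windows and 45.8% of protein-coding start windows. These 7 are the 3 *Fbxw* genes, *Gm42493*, which shares the start-site window of *Fbxw16*, and the 3 small nuclear RNA genes, whose differences of −0.62 to −0.55 are no larger than that of a window without reads and of which edgeR gave 2 a positive sign. *Gm42756*, which starts just upstream of *Fbxw23*, was higher in cKO by 0.64 ± 0.375 SE (limma adjusted p = 0.477), the largest positive difference of the 11.

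Of a list of 20 partners of F-box proteins and F-box genes elsewhere, 19 were found, 9 were lower and 10 higher in cKO, where 45.8% of protein-coding start windows were lower, with a median difference of 0.09, and 0 passed the limma test where 1.93% of protein-coding start windows did. *Skp1a*, the adaptor of the ligase, had the largest lower value (−2.52 ± 0.858 SE, adjusted p = 0.196), followed by the cullin *Cul1* (−1.56 ± 0.744 SE, adjusted p = 0.366). *Rbx1*, the RING subunit, was lower by −1.49 ± 0.375 SE with the smallest adjusted p of the list (0.0917), and *Nedd8*, the modifier of the cullin, was at 0.18 ± 0.396 SE (adjusted p = 0.654). *Fbxw4* (1.64 ± 0.468 SE, adjusted p = 0.128) and *Fbxw11*, a receptor for phosphorylated substrates (1.21 ± 0.559 SE, adjusted p = 0.348), were the largest in the other direction.

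The member windows held a median of 25 CpG dinucleotides per 5 kb, against a median of 39 and a lower quartile of 26 over the 24197 windows of chromosome 9 without unknown bases. The start-site windows held 18 to 36 and the other member windows 10 to 46, with medians of 23.5 and 26, and GC content ran from 38.8% to 45.5%. The start-site windows were thus no richer in CpG than the bodies of the same genes.

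By the mean of all its windows in the 6 H3K4me3 libraries, the cluster averaged 1.79 ± 0.0360 in WT and 1.48 ± 0.0655 in cKO (SD, n = 3). Among 14608 other genes with at least 3 windows, the 5 with the smallest Euclidean distance to it were *Gm15262* (0.198), *Smek1* (0.204), *Acvr2a* (0.215), *CT025661.1* (0.215) and *Dnahc7a* (0.254). *CT025661.1* is the *Fbxw25* of the same cluster, and the other 4 lie on other chromosomes.

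Markers of the oocyte and of the surrounding granulosa cells were read in the same libraries. Over the start-site windows of 8 oocyte genes (*Zp1*, *Zp2*, *Zp3*, *Gdf9*, *Bmp15*, *Figla*, *Nobox* and *Oosp1*), 6 were lower in cKO, against 45.8% of protein-coding start windows, and 0 passed the test, and their summed H3K4me3 was 43.1 to 45.9 in cKO libraries and 47.3 to 53.2 in WT libraries. The median difference of the 8 was −1.32, against −1.34 over the *Fbxw* starts, and 5 were lower at an unadjusted p under 0.05, namely *Zp2* (−2.65), *Bmp15* (−2.48), *Zp1* (−1.80), *Oosp1* (−1.73) and *Zp3* (−0.90), where 9.47% of protein-coding start windows were. *Gdf9*, whose promoter drives the Cre transgene, had the largest difference of them and in the other direction (3.24 ± 0.693 SE, limma adjusted p = 0.0598). Over 6 granulosa genes (*Amh*, *Foxl2*, *Fshr*, *Inha*, *Cyp19a1* and *Nr5a1*), 5 were higher and 1 lower in cKO, where 45.8% of protein-coding start windows were lower. Their sum was 23.3 to 25.0 in cKO and 17.5 to 20.3 in WT. At a limma unadjusted p under 0.05, *Foxl2* and *Inha* (2.09 ± 0.500 SE) were higher, as 14.9% of protein-coding start windows were. *Nr5a1* was lower at this level (−1.28 ± 0.512 SE), as 9.47% of protein-coding start windows were. After adjustment *Foxl2* alone passed (2.85 ± 0.529 SE, limma adjusted p = 0.0415), as 1.93% of protein-coding start windows did. That call was lost on both log2 scales (adjusted p = 0.206 and 0.441), after quantile normalization (0.151), with edgeR (0.744) and when any library but cKO replicate 1 was left out (0.0511 to 0.149). No list member was at the value of a window without reads, and *Fshr*, the FSH receptor, was lowest of the granulosa genes at 1.27 in cKO and 0.870 in WT. The part of these differences in the lower values at the *Fbxw* starts was not tested, and in pooled oocytes fewer cells with the mark and less of the mark per cell cannot be told apart.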

How the data were processed

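H3K4me3 and input libraries of GV oocytes were compared between *Setd1b* cKO and WT. Per the labels and methods, the authors trimmed reads (Trim Galore 0.4.2), mapped them to GRCm38 (Bowtie2 2.2.9), removed mappings of low mapping quality, counted reads in 5 kb windows, dropped windows with very high input and left out 1 poorly enriched library of each genotype. The deposited H3K4me3 values are a score, enrichment-normalized RPKM. The deposited input values are a signal, RPM per window. Every value gave a whole number of reads (100% within 0.01 reads).

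The 3 cKO and 3 WT libraries were compared with limma 3.58.1 on the values as deposited, across all 544879 windows with Benjamini-Hochberg adjustment, and edgeR 4.0.16 was fitted to the recovered reads. Scripts were tested on simulated data. Start sites came from GENCODE M21. The named genes were the members by start-site window, windows past the test, extremes, the annotated genes between the members, and the 5 closest genes. Members and lists were chosen with earlier results of these data known. Alternatives covered the scale, normalization, filters, the replicate number as a block and leaving out each library. Other data types of the study were not analysed here.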

Additional observations from a re-analysis of the deposited data

How the results depend on the processing

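The number of start-site windows past the limma test, 0 in the values reported, was also 0 on both log2 scales, with an intensity trend, after quantile normalization, over 10 kb pairs, at an adjusted p under 0.01, at the most upstream transcript start and with edgeR, as it was for windows assigned by overlap with the gene body. It was 1 with windows of a mean value of at least 1 and 1 with windows of a mean input of at least 1 (*Fbxw21* in both, adjusted p = 0.0471 and 0.0461), and 0 to 1 when a library was left out. The same numbers hold for all member windows called lower in cKO, and 0 were called higher under any setting. The mean input filter and the 10 kb pairs were chosen after seeing the data.

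With the replicate number as a block, 3 start-site windows passed (*Fbxw21*, *Fbxw16* and *Fbxw19*), and 8 of 10 had a negative estimate, with *Fbxw13* at 0.29 and *Fbxw24* at 0.27. In this fit cKO replicate 3 and WT replicate 2 have no partner of the same number. The estimate therefore rests on replicates 1 and 4 alone and is not a comparison of 3 with 3 libraries. The groups share only numbers 1 and 4, whose deviations correlated at 0.319 and 0.0190, so a pairing was not established. *Fbxw20* was at 0.15 over 10 kb pairs. The causes were not tested.

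Over all windows, limma called 3066 higher and 2473 lower in cKO, 0 on both log2 scales and at an adjusted p under 0.01, 1 higher after quantile normalization, 8540 and 10952 with an intensity trend, 13678 and 19755 with the replicate block, 6612 and 6097 over 10 kb pairs, 5369 and 6145 with edgeR, and 0 to 9330 higher and 0 to 8649 lower when a library was left out. On input, 0 member windows passed under any alternative. A member with low signal such as *Fbxw15* rests on 15 to 61 reads per library, which limits what a difference there can show.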
